A study of Mus musculus with 6 samples.

Results

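The chemokine ligands are small secreted proteins that steer migrating leukocytes, and 33 of their genes were measured in mammary epithelial organoids with and without Wwox. They were found by symbol: a gene was taken if at least 1 probe set on the Affymetrix mouse array carried a single platform symbol that began with Ccl, Cxcl, Xcl or Cx3cl and went on with a number. This gave 51 probe sets of 45037 tested, or 33 genes of 18193, of which 20 had 1 probe set and 13 had several. Where a gene had several, its brightest probe set by the mean of the 6 arrays stood for it. The other 4 probe sets with chemokine symbols list several genes each and were not assigned to any gene.

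Organoids are the epithelial fragments left after a mammary gland is digested. The 3 Wwox KO organoid samples (KO5, KO6 and KO7) came from BK5-cre +; WWOX flox/flox mice, and the 3 WT samples (WT1, WT2 and WT3) from BK5-cre -; WWOX flox/flox mice. All 6 mice were 8 weeks old and of a mixed 129/J and C57BL/6 background, both groups carried the floxed alleles, and each mouse gave 1 array. Cre was driven by the bovine keratin 5 promoter, which is active in epithelial precursor cells, and since no mouse on the arrays carried Cre without the floxed alleles, an effect of Cre itself cannot be told apart from that of Wwox deletion.

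Chemokines bind G protein-coupled receptors on leukocytes, and are grouped as CXC, CC, C and CX3C ligands by the spacing of their first cysteines. Inflammatory members are switched on by NF-kB and interferon signals in epithelium, stroma and resident leukocytes, while homeostatic members place lymphocytes and dendritic cells in tissue. In the mouse mammary gland macrophages and eosinophils gather around the growing ducts, and the eosinophils depend on eotaxin for it.

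The labelled deletion was checked first. Wwox had log2 values of 6.23, 5.87 and 5.96 in KO5, KO6 and KO7, against 7.77, 7.63 and 7.72 in WT1, WT2 and WT3, a difference of -1.69 (SE 0.13, limma adjusted p = 0.0228). The luminal keratin gene Krt8 was at 14.61, 14.71 and 14.60 in KO and 14.59, 14.40 and 14.58 in WT, and the basal keratin gene Krt14 at 10.37 to 10.68 in KO and 10.22 to 10.62 in WT, so both epithelial lineages were read on every array. RNA quality differed between the groups: the Gapdh control probe sets read from the 3' end exceeded those from the 5' end by 0.47 ± 0.08 in KO and 1.72 ± 0.73 in WT on the log2 scale (SD, n = 3 each, exact permutation p = 0.1, the smallest that 3 against 3 arrays allow), and those of beta-actin by 0.66 ± 0.04 in KO and 1.55 ± 0.49 in WT. The mean of both, used below as the RNA quality covariate, was 0.54 to 0.60 in KO and 0.96 to 2.13 in WT. It barely varied within KO and did not overlap between groups, so RNA quality and genotype cannot be told apart. Calls kept, lost or gained with this covariate are therefore given as values only.

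Chemokine expression was lower in Wwox KO organoids for 3 ligands, Ccl17, Ccl9 and Xcl1, and higher for 0. These passed the call used throughout, a limma p under 0.01 before adjustment with at least a 2-fold change. They make up 9.09% of the 33 genes, against 0.462% of all 18193 genes called lower and 0.517% called higher. After adjustment over all 45037 probe sets 0 chemokine ligands passed 0.05 in limma, against 0.137% of all genes. At an unadjusted p under 0.05, 7 were lower and 1 was higher, that is 21.2% and 3.03% of the ligands against 13% and 6.17% of all genes. The count of 3 rested on single mice: it was 0 without KO5, 1 without KO7, WT1 or WT2, and 5 without KO6 or WT3. Among all 18193 genes, 84 were called lower with all arrays, against 88 without KO5, 79 without KO6, 85 without KO7, 154 without WT1, 49 without WT2 and 188 without WT3.

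Most of the other ligands lay on the same side without passing a test. The difference, KO minus WT, was below 0 for 27 of the 33 genes (81.8%, against 61.2% of all genes), and its median was -0.34, against -0.06 over all genes. The ligand median was -0.11 with the Gapdh and beta-actin measures as a covariate and -0.20 without KO7. It reached at least 0.5 in size for 13 ligands that were lower (39.4%, against 8.15% of all genes) and 3 that were higher (9.09%, against 4.79%). The KO and WT arrays did not overlap for 7 ligands, all of them lower in KO (21.2%, against 16.1% of all genes lower and 7.2% higher). These were Ccl17, Ccl9, Xcl1, Ccl6, Cxcl10, Ccl27a and Cxcl12.

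**Figure D1:**
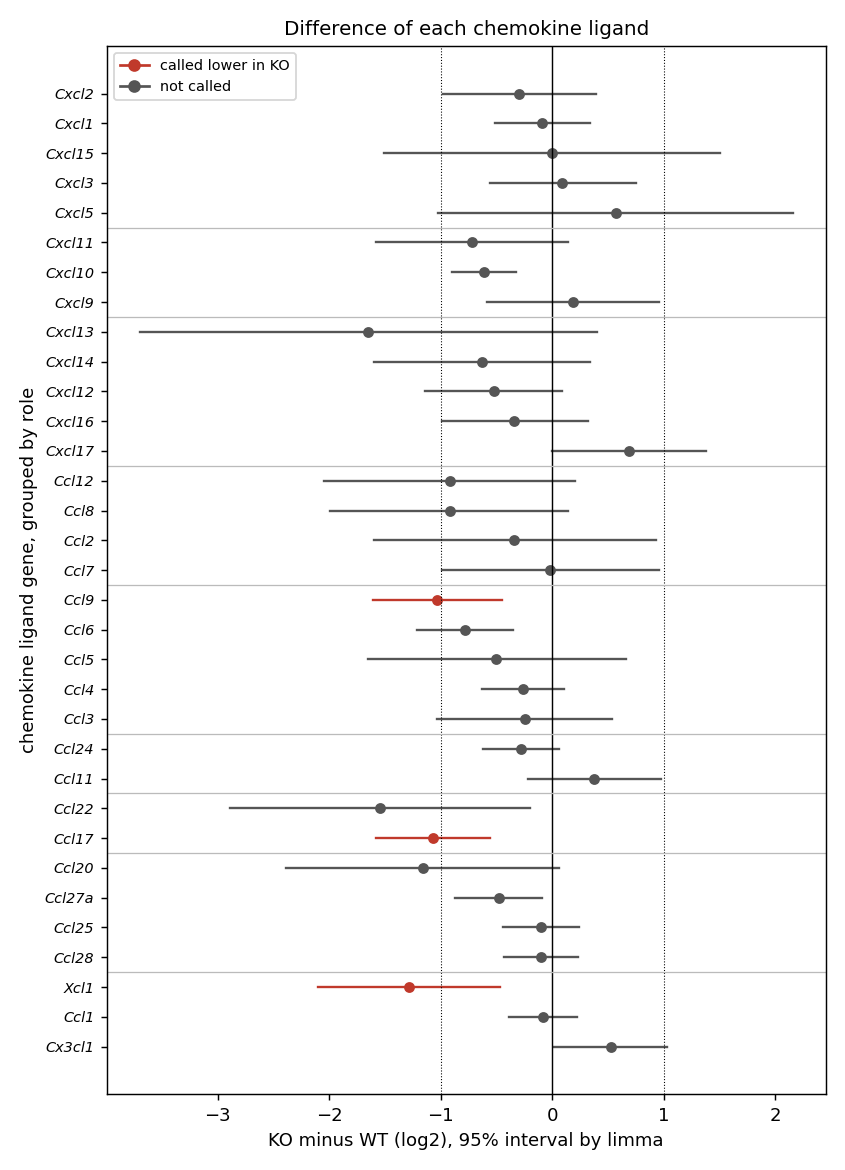
Difference between Wwox KO and WT organoids for the 33 chemokine ligands, as KO minus WT on the log2 scale (horizontal axis), 1 gene per line grouped by role, with points for the limma estimate and bars for its 95% confidence interval. The intervals of the 3 called genes, Ccl17, Ccl9 and Xcl1, lie wholly below 0, while the point estimates run from -1.65 for Cxcl13 to 0.69 for Cxcl17.

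The spread among mice was wide for ligands. The median SD over the ligands was 0.45 among KO arrays and 0.33 among WT arrays, against 0.15 in KO and 0.19 in WT over all genes, on the log2 scale. Among the KO arrays KO6 was the highest for 24 of the 33 ligands, while KO7 was the lowest for 16 and KO5 for 13. Among the WT arrays WT1 was the lowest for 16 ligands and the highest for 9, and WT3 was the lowest for 13 and the highest for 14.

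**Figure D2:**
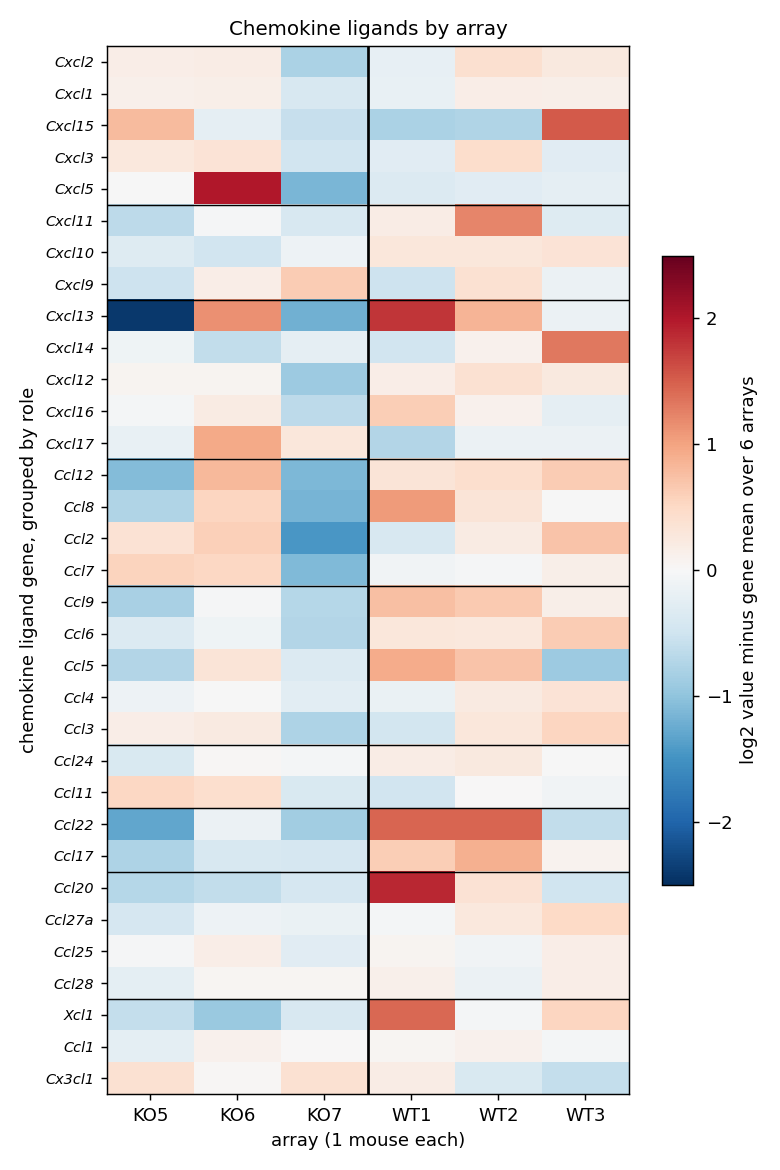
Level of each chemokine ligand (lines) on each array (columns, KO left of WT), as the log2 value minus the gene's mean over the 6 arrays, with blue below and red above that mean. KO5 and KO7 held the lowest value of the 6 arrays for 11 and 14 ligands, KO6 for 3.

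Proximal promoters are shown for 6 ligands: Ccl17, Ccl9 and Xcl1 because they were called, Cxcl10 because its groups did not overlap and its WT spread was small, and the neighbours Cxcl1 and Cxcl2 because they carry the same motif without a call. Each line gives the 250 bases before the start of the gene from RefSeq (GRCm38.p6), 5' to 3' on the gene's own strand, with motif matches in capitals.
Ccl17, chr8:94810203-94810452, + strand: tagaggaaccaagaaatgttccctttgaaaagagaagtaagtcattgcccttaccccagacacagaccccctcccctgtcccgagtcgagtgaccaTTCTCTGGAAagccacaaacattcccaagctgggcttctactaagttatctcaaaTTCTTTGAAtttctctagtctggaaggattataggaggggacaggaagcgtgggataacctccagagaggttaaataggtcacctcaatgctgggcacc
Ccl9, chr11:83578637-83578886, - strand: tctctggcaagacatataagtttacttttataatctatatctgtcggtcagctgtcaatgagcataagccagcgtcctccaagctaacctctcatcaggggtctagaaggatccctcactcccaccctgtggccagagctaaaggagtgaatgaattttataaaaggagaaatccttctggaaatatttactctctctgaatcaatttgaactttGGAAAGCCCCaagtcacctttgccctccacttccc
Xcl1, chr1:164935523-164935772, - strand: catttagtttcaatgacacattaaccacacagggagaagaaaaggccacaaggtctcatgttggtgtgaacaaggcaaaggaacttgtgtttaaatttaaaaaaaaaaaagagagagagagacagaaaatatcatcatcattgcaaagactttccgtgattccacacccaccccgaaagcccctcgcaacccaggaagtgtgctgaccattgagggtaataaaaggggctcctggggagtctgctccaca
Cxcl10, chr5:92348890-92349139, - strand: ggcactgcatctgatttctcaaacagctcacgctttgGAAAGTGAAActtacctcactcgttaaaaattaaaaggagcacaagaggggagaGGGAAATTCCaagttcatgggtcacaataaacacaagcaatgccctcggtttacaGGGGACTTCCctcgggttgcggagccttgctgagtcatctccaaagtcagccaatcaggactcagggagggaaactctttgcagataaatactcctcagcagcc
Cxcl1, chr5:90890995-90891244, + strand: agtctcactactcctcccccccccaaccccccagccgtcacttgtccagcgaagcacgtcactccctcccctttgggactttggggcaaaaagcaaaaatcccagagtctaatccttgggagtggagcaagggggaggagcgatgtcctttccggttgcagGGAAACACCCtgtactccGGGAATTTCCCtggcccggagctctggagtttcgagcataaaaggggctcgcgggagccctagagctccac
Cxcl2, chr5:90903649-90903898, + strand: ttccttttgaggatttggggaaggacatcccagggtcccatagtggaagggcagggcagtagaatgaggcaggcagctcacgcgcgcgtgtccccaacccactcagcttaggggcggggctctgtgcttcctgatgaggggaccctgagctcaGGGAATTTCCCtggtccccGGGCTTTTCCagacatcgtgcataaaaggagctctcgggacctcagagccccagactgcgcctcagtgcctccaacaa

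Of the 33 ligands 23 had an entry in the RefSeq promoter set used, and 4 motifs were searched on both strands. The other ligands, Ccl2 and Ccl5 among them, were not searched. The NF-kB motif (GGG, any 3 bases, TTCC) was found in 26.9% of the 26 ligand promoters, against 4.65% of all 32851 promoters, and it lay before Ccl1, Ccl9, Ccl20, Cxcl1, Cxcl2, Cxcl3 and Cxcl10. In Ccl9 it matched 35 to 26 bases before the start, and in Cxcl10 at 159 to 150 and at 104 to 95 bases. The paired matches of Cxcl1 (71 to 62 and 70 to 61) and of Cxcl2 (97 to 88 and 96 to 87) overlap, being one run read on either strand. The interferon motif (GAAA, any 2 bases, GAAA), in 2.98% of all promoters, matched Cxcl10 at 213 to 204 bases and was also found in Cxcl14. In Ccl17 the STAT6 motif (TTC, any 4 bases, GAA, in 5.85% of all promoters) matched at 154 to 145 bases before the start. The GAS motif of other STAT factors (TTC, any 3 bases, GAA, in 7.02%) matched Ccl17 at 99 to 91 bases. Xcl1 held none of the 4 motifs in these bases. The called and uncalled ligands were not divided by these letters: Ccl9 and Cxcl1 both hold the NF-kB motif, and a match describes the sequence, not a bound site.

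Ccl17 and Ccl22 are the 2 ligands of the receptor Ccr4, made mainly by dendritic cells and macrophages, and draw in regulatory and type 2 helper T cells. Ccl17 had log2 values of 4.95, 5.31 and 5.30 in KO5, KO6 and KO7, against 6.34, 6.61 and 5.80 in WT1, WT2 and WT3. All 3 KO arrays lay below all 3 WT arrays. The KO values also lay under the median of every array (5.42 to 5.47), so the fold size rests on low values. Ccl17 was 2.1-fold lower in KO (difference -1.07, SE 0.22, 95% interval -1.58 to -0.56, limma adjusted p = 0.0717).

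Ccl22 was at 5.50, 6.65 and 5.94 in KO, against 8.26, 8.26 and 6.19 in WT. WT1 and WT2 stood high, and WT3 lay among the KO arrays, so the groups overlapped. The difference of -1.54 (SE 0.57, 95% interval -2.89 to -0.20) was larger than that of Ccl17 but did not pass the call (limma adjusted p = 0.205). Without WT3 the Ccl22 difference was -2.23 and passed the call. In the RefSeq gene order of chromosome 8, Ccl22, Cx3cl1 and Ccl17 lie in a row with 1 other listed gene between each pair.

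The Ccl17 call was lost without KO5 (difference -0.95) and without WT2 (-0.89), since the change then fell under 2-fold, and it was lost with the Gapdh and beta-actin measures as a covariate (-1.0).

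The inflammatory CC ligands Ccl3, Ccl4, Ccl5, Ccl6 and Ccl9 attract monocytes, macrophages and activated T cells, and 5 of 5 had differences below 0, with 1 called, Ccl9. Ccl9, a mouse ligand of Ccr1 made by myeloid cells, was at 6.21, 6.99 and 6.29 in KO and 7.77, 7.66 and 7.15 in WT. Its highest KO value, in KO6, lay just under its lowest WT value, in WT3, with no overlap. It was 2.04-fold lower in KO (difference -1.03, SE 0.25, 95% interval -1.61 to -0.45, limma adjusted p = 0.0941). Its second probe set read 4.67, 5.11 and 4.24 in KO and 5.60, 5.85 and 5.05 in WT, overlapping between KO6 and WT3, with a difference of -0.82 (adjusted p = 0.165).

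Ccl6, a related rodent ligand of Ccr1, was at 5.56, 5.78 and 5.17 in KO and 6.17, 6.15 and 6.53 in WT. The groups did not overlap, and the difference of -0.78 (SE 0.18, 95% interval -1.21 to -0.35, limma adjusted p = 0.0916) missed the call only by its size, 1.72-fold. A second Ccl6 probe set differed by -0.07. Ccl6 and Ccl9 lie on chromosome 11 with 1 listed gene between them.

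Ccl5, made by T and NK cells and by epithelium under interferon, was at 9.49, 10.53 and 9.88 in KO and 11.15, 10.93 and 9.31 in WT. WT3 was the lowest of the 6 arrays and the others of its group the highest, and the difference of -0.50 had an interval of -1.65 to 0.66 (adjusted p = 0.636). It was -0.15 without WT1 and -0.26 without KO5 or WT2, and without WT3 it was -1.07 and passed the call. Without KO6 it was -0.78. Ccl3 and Ccl4, macrophage ligands encoded side by side, differed by -0.24 (95% interval -1.03 to 0.54) and -0.26 (-0.63 to 0.11).

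The Ccl9 call was lost without KO5 (-0.89), KO7 (-0.93), WT1 (-0.91) or WT2 (-0.97), with the mean of both probe sets (-0.93), and with the RNA quality covariate (-1.23).

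Xcl1, lymphotactin, is made by activated NK and T cells and attracts the dendritic cells that carry Xcr1. It was at 4.93, 4.60 and 5.12 in KO, against 6.95, 5.47 and 6.07 in WT. The groups did not overlap, and WT1 stood well above the other arrays. All KO values lay under the median of every array (5.42 to 5.47), so here too the fold size rests on low values. Xcl1 was 2.43-fold lower in KO (difference -1.28, SE 0.35, 95% interval -2.10 to -0.47, limma adjusted p = 0.117). The receptor gene Xcr1 differed by 0.07, at low means of 3.41 in KO and 3.34 in WT, under the median of every array (5.42 to 5.47). The Xcl1 call was lost without KO5 (-1.30), KO6 (-1.14), KO7 (-1.40), WT1 (-0.89) or WT3 (-1.33) and with array weights (-1.05), while it held with the RNA quality covariate (-2.61).

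Cx3cl1, fractalkine, a membrane-anchored ligand on epithelium and endothelium, ran the other way. It was at 8.25, 7.91 and 8.25 in KO and 8.06, 7.50 and 7.27 in WT, with KO6 below WT1. The difference of 0.53 (SE 0.21, 95% interval 0.02 to 1.03, adjusted p = 0.240) was the 1 higher difference with an unadjusted p under 0.05, and it was -0.10 with the RNA quality covariate. Its other probe sets gave 0.08, 0.33 and -0.34, so the probe sets of this gene disagreed. Ccl1, a ligand of Ccr8 from activated T cells, differed by -0.08 (95% interval -0.39 to 0.22).

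**Figure D3:**
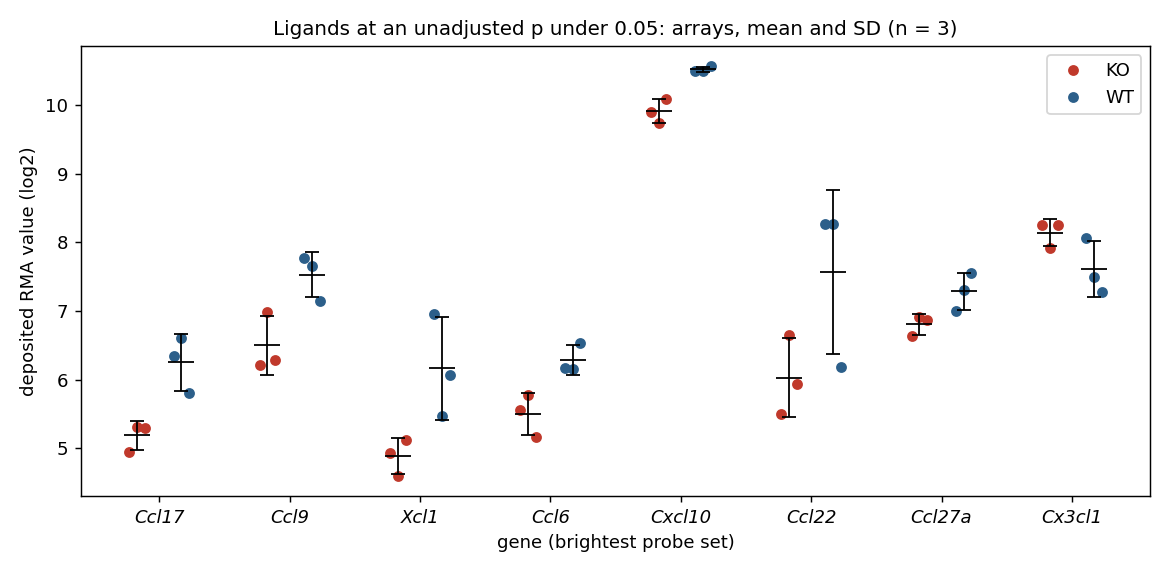
Log2 values on each array (points, KO left of WT) of the 8 chemokine ligands with an unadjusted limma p under 0.05, with lines for the group means and bars for 1 SD (n = 3 arrays each). Ccl17, Ccl9, Xcl1, Ccl6, Cxcl10 and Ccl27a show no overlap between KO and WT, while Ccl22 and Cx3cl1 do overlap.

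The 3 interferon-induced CXC ligands call T and NK cells through Cxcr3. Cxcl10 was at 9.89, 9.74 and 10.09 in KO and 10.50, 10.50 and 10.56 in WT, with the WT arrays close together (SD 0.04) and all KO arrays below them. Its difference of -0.61 (SE 0.12, 95% interval -0.90 to -0.32, limma adjusted p = 0.0702) missed the call by size, 1.53-fold. It was -0.61 with the RNA quality covariate as well.

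Cxcl11, encoded next to Cxcl10 on chromosome 5, was at 6.57, 7.18 and 6.82 in KO and 7.40, 8.43 and 6.90 in WT, overlapping between KO6 and WT3 (difference -0.72, 95% interval -1.58 to 0.14). Cxcl9 differed by 0.19 (95% interval -0.58 to 0.96). The cluster therefore gave one difference that stood clear of its spread and a pair that did not.

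Of the neutrophil-attracting CXC ligands, Cxcl1, Cxcl2, Cxcl3 and Cxcl5 bind Cxcr2 and are NF-kB targets made by inflamed epithelium. Cxcl15 was grouped with them. Of the 5 genes 0 were called, 0 had an unadjusted limma p under 0.05 and the median difference was 0. Cxcl1 was at 14.22, 14.24 and 13.70 in KO and 13.91, 14.26 and 14.25 in WT, with KO7 lowest and the other KO arrays inside the WT range (difference -0.09, SE 0.18, 95% interval -0.51 to 0.34) and 0.09 without KO7. The interval limits the difference of Cxcl1 to under 2-fold either way. Cxcl2 differed by -0.30 (95% interval -0.98 to 0.39) and Cxcl3 by 0.09 (-0.56 to 0.75).

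Cxcl5, an epithelial ligand of this group, was at 6.82, 8.82 and 5.69 in KO and 6.48, 6.54 and 6.59 in WT. KO6 was the highest and KO7 the lowest of all 6 arrays, while the WT arrays lay close together. Its difference was 0.57 (SE 0.68, 95% interval -1.02 to 2.16), and -0.29 without KO6. Cxcl15, a mouse ligand best known from lung epithelium, was at 12.29, 11.29 and 10.93 in KO and 10.72, 10.76 and 13.04 in WT. WT3 and KO5 stood high, and the difference was 0 (95% interval -1.51 to 1.51).

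The monocyte-attracting CC ligands are made by stroma and macrophages. Of these, 4 of 4 had differences below 0, with 0 called and 0 at an unadjusted limma p under 0.05. Ccl2, the chief monocyte attractant, was at 9.46, 9.69 and 7.64 in KO and 8.69, 9.30 and 9.82 in WT, with KO7 far below the rest (difference -0.34, 95% interval -1.60 to 0.93). Without KO7 the Ccl2 difference was 0.31. Ccl7 differed by -0.02 (95% interval -0.99 to 0.96).

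Ccl12, a mouse relative of Ccl2, was at 4.56, 6.46 and 4.53 in KO and 5.97, 6.07 and 6.27 in WT, so KO6 exceeded every WT array while KO5 and KO7 lay below all of them. Ccl8 was at 6.44, 7.72 and 6.03 in KO and 8.26, 7.51 and 7.18 in WT, with KO6 again among the WT arrays. The differences were -0.92 for both (95% intervals -2.05 to 0.21 for Ccl12 and -1.99 to 0.14 for Ccl8). Without KO6 they were -1.56 for Ccl12 and -1.42 for Ccl8, and both passed the call. The Ccl12 difference was -0.61 without KO5 and -0.59 without KO7, and that of Ccl8 was -0.57 without KO7 and -0.62 without WT1.

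Among the other CXC ligands, which act mainly in lymphoid and stromal homeostasis, 4 of 5 had differences below 0. Cxcl13, which draws B cells into follicles through Cxcr5, was at 6.32, 9.87 and 7.52 in KO and 10.51, 9.58 and 8.58 in WT. KO6 lay inside the WT range and KO5 lowest of all. The difference of -1.65 (SE 0.88, 95% interval -3.70 to 0.40, adjusted p = 0.354) was the most negative of the 33 without passing. It was -0.86 without KO5, and -2.64 and called without KO6. Its second probe set differed by -0.51.

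Cxcl12, the stromal ligand of Cxcr4, was at 10.17, 10.17 and 9.20 in KO and 10.27, 10.49 and 10.35 in WT, all KO arrays below all WT arrays but with KO7 well apart (difference -0.52, 95% interval -1.14 to 0.09, adjusted p = 0.33). Its other probe sets gave 0.02 and 0.19, so the direction was not shared. Cxcl16, a transmembrane ligand of Cxcr6, differed by -0.34 (adjusted p = 0.562), and by -0.74 on its second probe set, whose arrays did not overlap (adjusted p = 0.152).

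Cxcl14, made by epithelium and fibroblasts, was at 8.84, 8.33 and 8.72 in KO and 8.47, 9.05 and 10.26 in WT, with WT3 highest (difference -0.63, 95% interval -1.60 to 0.34). Cxcl17, a mucosal epithelial ligand, was at 9.41, 10.54 and 9.88 in KO and 8.87, 9.45 and 9.45 in WT. Only KO5 lay within the WT range. Its difference of 0.69 (SE 0.30, 95% interval 0 to 1.38, adjusted p = 0.262) was the most positive of the 33.

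The epithelial CC ligands, which guide lymphocytes to skin and mucosa, had differences below 0 for 4 of 4. Ccl20, the NF-kB-driven ligand of Ccr6, was at 6.65, 6.74 and 6.93 in KO and 9.23, 7.72 and 6.86 in WT. The KO arrays were close together, WT1 was high and WT3 lay within the KO range, and the difference of -1.16 had an interval of -2.39 to 0.06 (adjusted p = 0.283). It was -0.51 without WT1. Without WT3 it was -1.70 and passed the call, and with the RNA quality covariate it was -2.88 and passed as well.

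Ccl27a, a keratinocyte ligand with near-identical gene copies that its probes may also read, was at 6.63, 6.91 and 6.87 in KO and 7.0, 7.30 and 7.55 in WT. The groups did not overlap (difference -0.48, SE 0.17, adjusted p = 0.181), and with the RNA quality covariate the difference was -0.11. A pair of probe sets that list Ccl27a together with its copies, and were not assigned to it, differed by -0.67 and -0.49. Ccl25 and Ccl28 differed by -0.10 each.

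Of the eotaxins, which attract eosinophils through Ccr3, Ccl11 was at 10.35, 10.24 and 9.45 in KO and 9.34, 9.84 and 9.73 in WT, with KO7 inside the WT range (difference 0.38, 95% interval -0.22 to 0.98). Ccl24 differed by -0.28 (adjusted p = 0.343). The platelet chemokine genes Pf4 and Ppbp, whose symbols the search did not take, differed by -0.39 and -0.27 and were not called.

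Several ligands ordered the arrays as leukocyte markers did. Of the marker genes measured, 30 of 31 for macrophages and dendritic cells, 19 of 19 for T and NK cells and 9 of 9 for B cells had differences below 0, with 3 (Aif1, C1qb and Tyrobp), 0 and 0 called lower in limma. At an unadjusted p under 0.05, 6, 3 and 1 were lower. Of all genes, 61.2% had differences below 0, 0.462% were called lower and 13% were lower at an unadjusted p under 0.05. The summed log2 level of the macrophage and dendritic list was 13.37, 14.26 and 13.59 in KO5, KO6 and KO7, against 15.06, 14.80 and 13.41 in WT1, WT2 and WT3. That of T and NK cells was 10.25, 11.15 and 10.33 in KO, against 12.57, 11.73 and 10.58 in WT, and that of B cells 8.25, 9.87 and 8.15 in KO, against 10.60, 9.98 and 8.30 in WT. KO6 was thus the highest KO array and WT3 the lowest WT array on all 3 lists, as for Ccl22, Cxcl13, Ccl8, Ccl5, Cxcl11 and Cxcl16, among others. The called ligands Ccl9 and Ccl17 held this order too, although for Ccl17 KO6 (5.31) barely exceeded KO7 (5.30). For the called Xcl1, KO6 was the lowest KO array and WT2 the lowest WT array.

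None of these lists separated the groups (exact permutation p = 0.3 for macrophages and dendritic cells, 0.2 for T and NK cells and 0.2 for B cells). The pan-leukocyte gene Ptprc was at 7.16, 9.18 and 7.32 in KO and 11.29, 10.24 and 7.81 in WT, and Cd3d of T cells at 5.50, 8.39 and 5.25 in KO and 10.27, 9.13 and 6.04 in WT. In these bulk samples fewer leukocytes and less ligand RNA per cell cannot be told apart, and the part of leukocyte content in the chemokine differences was not tested.

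**Figure D4:**
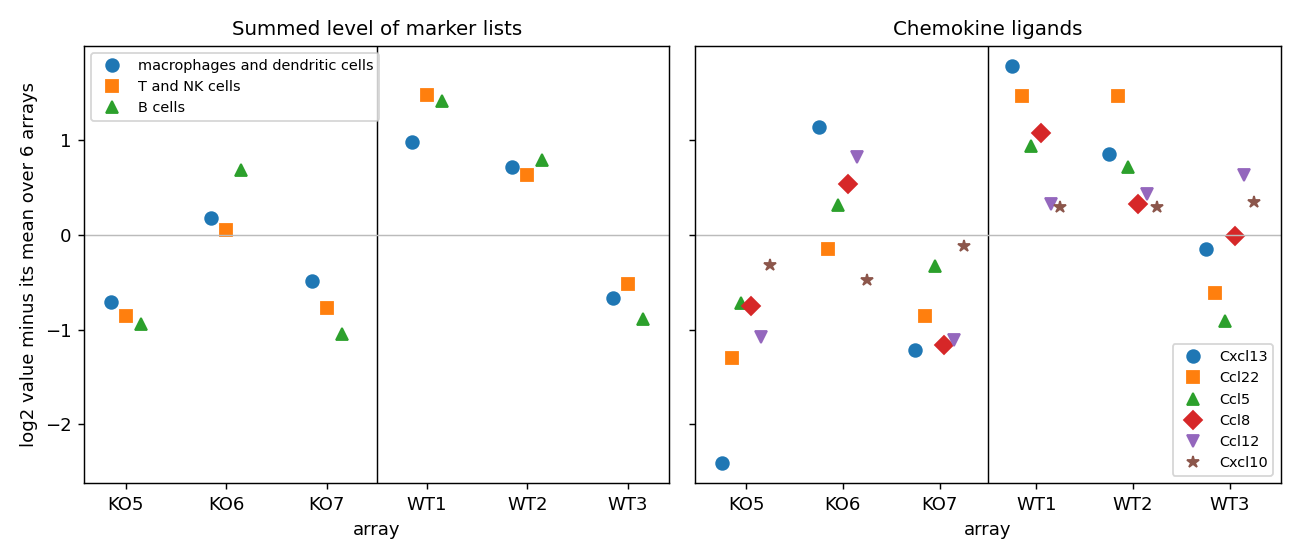
Summed level of 3 leukocyte marker lists (left) and levels of 6 chemokine ligands (right) on each array, KO left of WT, as log2 value minus the mean over the 6 arrays. KO6 lies above KO5 and KO7 and WT3 below WT1 and WT2 on all 3 lists and for Cxcl13, Ccl22, Ccl5 and Ccl8, whereas Cxcl10 lies lower on every KO array. For Ccl12 KO6 is the highest KO array, but WT3 is the highest WT array.

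Neutrophil and mast cell genes had 2 of 15 called lower (Cma1 and S100a9) and summed to 10.43 to 10.44 in KO and 10.78 to 11.05 in WT, with no overlap (exact permutation p = 0.1, the smallest possible). The brightest gene of this sum, Kit (means 9.37 in KO and 9.65 in WT), is also on the luminal list. Differences were below 0 for 12 of the 15, but above 0 for Csf3r (0.09), Cxcr2 (0.14) and Elane (0.02) of neutrophils. The sum therefore cannot tell neutrophils, mast cells and epithelium apart. Of all genes, 0.462% were called lower and 0.517% higher. Fibroblast genes had 2 of 15 and endothelial genes 3 of 14 called higher, with sums of 15.19 to 15.77 in KO and 14.97 to 15.11 in WT for fibroblasts and 13.61 to 14.19 in KO and 13.08 to 13.65 in WT for endothelium. Luminal epithelial genes summed to 16.92 to 16.98 in KO and 16.61 to 16.98 in WT, with 0 of 21 called, and basal genes to 14.37 to 14.72 in KO and 14.35 to 14.68 in WT, with 0 of 13 called. Adipocyte genes had 1 of 8 called higher, Lipe, with sums of 14.34 to 14.41 in KO and 14.13 to 14.24 in WT. This sum is mostly the single gene Fabp4, with means of 14.27 in KO and 14.08 in WT. Of the 8 genes 3 had differences below 0, Adipoq (-0.66), Retn (-0.81) and Lep (-0.22), and the rest above 0. The part of these lists in the chemokine differences was not tested. Of the calls in these lists, all but Col1a1 of fibroblasts and Cldn5 of endothelium were lost without at least 1 array. So were those of Aif1, C1qb and Tyrobp.

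The receptors were measured on 16 of 18 genes, and 0 were called in either direction in limma. Differences were below 0 for 9 of them, against 61.2% of all genes. At an unadjusted p under 0.05, where 13% of all genes were lower and 6.17% higher, 3 receptors were lower and 0 higher. The 3 were Ccr1, the receptor of Ccl9 and Ccl6 (-0.55), Cxcr4, that of Cxcl12 (-0.64), and Cxcr6, that of Cxcl16 (-0.69). Ccr4, which binds Ccl17 and Ccl22, differed by 0.25 and Cxcr3, which binds Cxcl10, by 0.05. Both lay under the median of every array (5.42 to 5.47). Ccr4 had means of 4.26 in KO and 4.01 in WT, and Cxcr3 of 4.61 and 4.56, so these differences say little. The same limit holds for Ccr1, with means of 4.12 in KO and 4.67 in WT, and for Cxcr6, with 4.42 and 5.11. Cxcr4 lay higher, at 8.76 and 9.40. Ccr7, the homing receptor of mature dendritic cells and naive T cells, was at 4.96, 8.31 and 6.22 in KO and 10.02, 8.99 and 5.45 in WT, again with KO6 high and WT3 low.

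The atypical receptors take up chemokines without the usual signal, and 0 of 6 were called in limma, with 1 lower and 1 higher at an unadjusted p under 0.05. Ccrl2, which presents chemerin on leukocytes and endothelium, was at 9.73, 9.44 and 9.12 in KO and 10.03, 10.67 and 10.41 in WT. These values did not overlap, and the difference of -0.94 (limma adjusted p = 0.0849) fell short of 2-fold.

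Of 34 measured cytokines and NF-kB pathway genes that induce chemokines, 25 had differences below 0, 0 were called lower and 1, Il33, was called higher. Il33, an alarmin of epithelial and stromal nuclei, was at 10.99, 10.85 and 11.41 in KO and 8.82, 8.65 and 10.17 in WT, with every KO array above every WT array (difference 1.87, SE 0.39, limma adjusted p = 0.0733). The Il33 call held without each array in turn, but not with the RNA quality covariate (2.07). Of all genes, 61.2% had differences below 0, and 13% were lower and 6.17% higher at an unadjusted p under 0.05. At that limit 1 inducer was higher and 9 were lower. The lower ones included Tnf, the inflammatory cytokine upstream of NF-kB, at 8.19, 8.74 and 8.45 in KO and 8.84, 9.21 and 9.29 in WT (difference -0.66, limma adjusted p = 0.122). Others were Il1a (-0.89), Il1b (-1.09) and Ifng, the inducer of Cxcl9, Cxcl10 and Cxcl11 (-0.78). The Ifng means, 4.44 in KO and 5.22 in WT, lay under the median of every array. Differences above 0 that missed that limit included Rela (0.45), Nfkb2 (0.44) and Relb (0.15) of NF-kB and the receptor gene Ifngr2 (0.46).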

How the data were processed

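RNA of mammary epithelial organoids from 3 Wwox KO and 3 WT mice had been hybridised to Affymetrix mouse arrays, 1 per mouse. As deposited, the values are log2 RMA estimates by the authors, that is, background-corrected, quantile normalized and summarised per probe set. No version of RMA is given in the sources used. The study's methods name simpleaffy and limma. The values were not normalized again. Of 45101 probe sets 64 were Affymetrix controls, used for RNA quality only. The tests ran on 45037: 34945 had a single gene symbol, 932 more than 1 and 9160 no symbol.

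The fit of KO against WT used lmFit and eBayes of limma 3.58.1 under R 4.3.3 on all probe sets with no covariate, and every adjusted p is limma's, by Benjamini and Hochberg over all of them. The limits of the call (p under 0.01, 2-fold) are those of the study. Intervals are 95% intervals of limma. Summed list levels are log2 of the summed unlogged values and were compared by two-sided exact permutation tests. The p-values measure the spread between mice, and 3 arrays a group limit the precision. On simulated data for KO minus WT over 45037 probe sets the step recovered 84% of log2 changes of 1.2 and 98% of changes of 2, with 0 of the wrong sign. These shares do not give the recovery for the ligands, which varied more between mice. Their median SD was 0.45 in KO and 0.33 in WT, against 0.15 and 0.17 over all probe sets.

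The ligands, roles, gene lists and tests were chosen with earlier results of these data known. Every ligand found could be named. Values of each array were given for ligands called, with p under 0.05, differing by at least 0.5 on the log2 scale or the brightest of a role, and for a few other genes of the lists. Promoters were matched by symbol to RefSeq. Alternatives were other scalings, a minimum mean log2 value of 6, other limits, other probe set choices, array weights, a trend and robust prior, a replicate block, the Gapdh and beta-actin 3'-to-5' differences as a covariate, and each array left out. Plots were made with Python 3.11.15 and matplotlib 3.10.9.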

Additional observations from a re-analysis of the deposited data

How the results depend on the processing

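The count of 3 ligands called lower came to 1 with a minimum mean log2 value of 6, which left 25 of the 33 genes and dropped Ccl17 and Xcl1, to 5 at p under 0.01 with no fold limit, to 7 at p under 0.05 with no fold limit, and to 0 at an adjusted p under 0.05. With single arrays left out it ranged from 0 to 5. The count called higher was 0 in limma, 1 at p under 0.05 with no fold limit, and 0 to 0 with single arrays left out. The median difference of -0.34 was -0.11 with the Gapdh and beta-actin covariate, which also put Ccl2 at 0.46, Cxcl1 at 0.27 and Cxcl14 at 0.22, and the median ranged from -0.48 to -0.20 with single arrays left out. Under cyclic loess and under centring on ribosomal protein genes 3 ligands were called, with medians of -0.28 and -0.31.

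With the replicate number as a block, 3 ligands were called lower with a median of -0.34, and no call changed. The labels link KO and WT arrays only by that number. The correlations of the deviations of same-numbered arrays were -0.16, 0.16 and 0.10. With 3 arrays a group these values cannot decide whether the numbers pair the samples.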
